A study of Mus musculus with 24 samples.

Results

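The mitochondrial ribosomal protein genes are the nuclear genes, with symbols beginning Mrpl or Mrps, for the protein subunits of the ribosome inside mitochondria. They were chosen by symbol alone (Mrpl or Mrps followed by a digit, with pseudogene symbols left out), which gave 77 genes of the 24421 gene symbols in each RNA-seq count table. By symbol, 48 belong to the large subunit and 29 to the small subunit. All 77 passed the filter on low counts in every comparison, so no gene dropped out of the counts given here.

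Mitochondria keep a small genome of their own, and the proteins it encodes are core subunits of the respiratory chain and of ATP synthase. A separate ribosome makes them: its small subunit reads the messenger RNA and its large subunit joins the amino acids. Its ribosomal RNAs come from the mitochondrial genome, whereas all its proteins are encoded in the nucleus, made in the cytosol and imported. Some symbols do not match the place of the protein. The Mrps30 and Mrps18a proteins sit in the large subunit, and the Mrps36 protein is known as a component of the 2-oxoglutarate dehydrogenase complex.

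The RNA-seq part of the study compared mouse B16-OVA melanoma cells (C57BL/6 background; a tumour line that expresses the model antigen ovalbumin) carrying an shRNA against Fto with cells carrying the control shRNA, shNC, in 3 libraries each. Fto encodes an enzyme that removes the m6A mark, a methyl group on adenosines in RNA. The second table holds CD8+ T cells from OT-I mice (C57BL/6 background), whose T cell receptor recognises an ovalbumin peptide. They were isolated as naive cells, kept with B16-OVA cells and IL-2 for 8 hours and then sorted. There were 2 T cell libraries each from cultures with shFto-1, shFto-2 and shNC tumour cells, so the T cells themselves carried no shRNA. The labels do not say whether the tumour libraries marked shFto came from shFto-1 or shFto-2. The tumour cells were also assayed by ATAC-seq, which marks open chromatin, in 3 libraries each of shFto and shNC. For m6A-seq, which enriches methylated RNA with an antibody, there was 1 antibody library and 1 input library each for shNC with DMSO, shFto with DMSO, and shNC with 5 µM Dac51 for 48 hours. The labels do not tie replicates to separate cultures or mice, and the p-values therefore rest on the spread among libraries, which may be technical.

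Tumour libraries held 11152404 to 19665589 counts and T cell libraries 2628158 to 13066355, with the first shNC replicate of the T cells the shallowest. Levels are given as CPM, a gene's count relative to the scaled total of its library. Fto itself was at 25.2 to 29.5 CPM in the shFto tumour libraries and 80.7 to 96.0 CPM in the shNC tumour libraries. The 10 CD8 T cell markers had a sum of 3783 to 5216 CPM in the T cells and of 3.65 to 6.56 CPM in the tumour cells. All 10 melanocyte markers were present in every T cell library, although the T cells had been sorted. For levels against tumour cells, the matched group was the shFto tumour libraries for both shFto lines and the shNC tumour libraries for shNC. The shFto tumour libraries are of unknown line, so the match is by Fto depletion and not by line. Against the matched tumour group, the median marker level was 10.9% and 9.17% in the 2 libraries beside shFto-1, 10.6% and 10.4% beside shFto-2, and 10.0% and 11.1% beside shNC. Summed melanocyte markers reached 1981 to 2237 CPM beside shFto-1, 1991 to 2144 CPM beside shFto-2 and 1495 to 1972 CPM beside shNC, against 16120 to 22040 CPM in tumour libraries. Single melanocyte markers did not move alike between the T cell groups. Pmel was at 43.5 and 49.6 CPM beside shNC and at 189 to 222 CPM beside the shFto lines. Dct overlapped, at 492 and 681 CPM beside shNC and 488 to 579 CPM beside the shFto lines. Summed CD8 markers were lower beside shFto-1 (4487 to 4580 CPM) and shFto-2 (3783 to 4136 CPM) than beside shNC (5134 to 5216 CPM). Not every marker followed the sum: Thy1 was higher beside the shFto lines (466 to 495 CPM) than beside shNC (383 and 373 CPM). Pecam1, listed with the endothelial markers, was at 160 and 127 CPM beside shNC and at 33.2 to 79.3 CPM beside the shFto lines, while Cdh5, the other endothelial marker, was at 0 in 4 of the 6 T cell libraries and at most 2.39 CPM. The part of tumour RNA in the T cell results below was not tested. Where a gene's level is set beside that of the markers, this is a description only.

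Promoters were available from RefSeq (GRCm38.p6) for 68 of the 77 genes, in 74 windows of the 250 bases upstream of an annotated start. The windows of 3 genes are shown, each 5′ to 3′ on the strand of the gene: Mrpl12, the member with the largest fall in tumour cells, Mrps25, the member with the largest rise in T cells, and Mrpl17, a member that fell in one and rose in the other and whose window holds 2 of the motifs searched. Capitals mark motif matches on either strand. In Mrpl12 (chr11:120484387-120484636, plus strand) they mark the palindromic motif of NRF1. In Mrps25 (chr6:92184024-92184273, minus strand) they mark a CCAAT box, which lies on the other strand. In Mrpl17 (chr7:105811088-105811337, minus strand) they mark the ETS core CCGGAAG and then the NRF1 palindrome, which lies on the other strand.
Mrpl12: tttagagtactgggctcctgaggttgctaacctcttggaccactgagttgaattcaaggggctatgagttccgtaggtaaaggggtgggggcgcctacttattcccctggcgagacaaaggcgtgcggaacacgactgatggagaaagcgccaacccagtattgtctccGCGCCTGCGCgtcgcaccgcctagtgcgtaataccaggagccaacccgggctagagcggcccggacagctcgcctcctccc
Mrps25: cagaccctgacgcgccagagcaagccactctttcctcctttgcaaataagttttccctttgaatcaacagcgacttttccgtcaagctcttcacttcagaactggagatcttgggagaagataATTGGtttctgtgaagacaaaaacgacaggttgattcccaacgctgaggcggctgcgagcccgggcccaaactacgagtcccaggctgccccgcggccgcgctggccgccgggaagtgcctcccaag
Mrpl17: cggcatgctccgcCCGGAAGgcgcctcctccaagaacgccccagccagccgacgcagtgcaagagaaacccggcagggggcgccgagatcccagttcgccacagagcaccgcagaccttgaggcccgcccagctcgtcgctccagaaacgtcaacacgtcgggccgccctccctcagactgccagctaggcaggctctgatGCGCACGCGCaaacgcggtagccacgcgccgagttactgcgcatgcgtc

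NRF1 and the ETS factor GABP are known regulators of nuclear genes for mitochondrial proteins. The ETS core CCGGAAG was present in 17 of the 74 windows (23%), against 14.1% of the 11158 windows of protein-coding genes tested in tumour cells and 6.91% of all 32851 windows. The NRF1 palindrome was present in 10 windows (13.5%), against 8.42% and 3.74%. Apart from the core motif of YY1, the remaining motifs lay nearer to their share in tested coding genes. The E-box CACGTG, which Myc and related factors bind, was in 9.46% of member windows against 8.5%, the CCAAT box in 37.8% against 35.7%, and the TATA box TATAAA in 6.76% against 5.98%. The core motif of YY1 was in 1 window (1.35%), against 0.681% of the windows of tested coding genes. Overlapping windows of a gene were counted apart, so the same E-box site of Mrpl2 was counted more than once. Both strands were searched, the motifs do not contain one another, and a match is a description of the letters only.

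Many of these genes share their promoter region with a neighbour. For 24 of the 68 genes (35.3%), a start on the opposite strand lay within 1000 bp and pointed away, against 14.2% of 8683 tested protein-coding genes. One such pair lies within the family: the starts of Mrpl46 and Mrps11 are 42 bp apart. Mrps12 starts 147 bp from Sars2, which encodes the mitochondrial seryl-tRNA synthetase. The 24 neighbours include Mrpl46 and Mrps11 themselves. By symbol, 23 were tested in tumour cells, where 2 rose and 7 fell with shFto (median log2 fold change -0.0855). Of all genes tested there, 15.9% rose and 16.9% fell. In T cells 22 were tested, of which 6 rose and 2 fell beside shFto-1 (median 0.20) and 8 rose and 3 fell beside shFto-2 (median 0.37). The shares over all genes tested were 15.4% and 6.84% beside shFto-1 and 20.4% and 13.3% beside shFto-2. The 77 genes lie on 17 chromosomes, and 25 overlap another annotated gene. Whether the counting used strand is not given in the sources used here, so reads in such overlaps may have been assigned to either gene.

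In tumour cells, the question was how these genes differed between Fto-depleted and control cells. With shFto, 24 of the 77 genes fell and 1 rose at an adjusted p under 0.05 (edgeR quasi-likelihood test, Benjamini-Hochberg), while 16.9% of all 11718 genes tested fell and 15.9% rose. The median log2 fold change of the 77 genes was -0.14, against -0.00281 over all genes tested. Falls were found in both subunits: 16 of 48 large subunit genes (33.3%) and 8 of 29 small subunit genes (27.6%), with median log2 fold changes of -0.0933 and -0.149. Placing Mrps30 and Mrps18a with the large subunit and leaving out Mrps36 gave 16 of 50 and 8 of 26. Without the third shNC replicate, which had the highest summed level of these genes, the median was -0.0383 and 21 genes fell.

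Mrpl12 showed the largest fall. Its protein forms the stalk of the large subunit, which recruits translation factors, and is also known to bind the mitochondrial RNA polymerase. The gene stood at 480, 450 and 548 CPM in the shNC libraries and at 265, 282 and 308 CPM in the shFto libraries. The 2 groups did not overlap, and the log2 fold change was -0.79 (SE 0.09, adjusted p = 2.7e-06 by edgeR).

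Mrpl54, Mrpl34 and Mrpl38, also large subunit genes, fell by 0.68, 0.66 and 0.61 on the log2 scale. Mrpl38 was at 121, 113 and 124 CPM with shNC and at 74.5, 67.0 and 92.0 CPM with shFto. Mrpl54 was at 57.6, 56.8 and 71.2 CPM with shNC and at 41.2, 35.8 and 38.2 CPM with shFto. In both genes every shFto library lay below every shNC library. Among small subunit genes, Mrps12, whose protein lies at the decoding site, had levels of 59.5, 53.6 and 74.3 CPM with shNC and 37.7, 36.0 and 45.0 CPM with shFto. It fell by 0.65 on the log2 scale (SE 0.118, edgeR adjusted p = 0.000332), and its divergent neighbour Sars2 fell by 0.56 (edgeR adjusted p = 0.000567). Mrps24 fell by 0.60 on the log2 scale (SE 0.112).

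Mrps6, a small subunit gene, was the only member past the threshold in the other direction. It was at 43.6, 48.3 and 52.8 CPM with shNC and at 59.2, 58.3 and 57.7 CPM with shFto, a log2 difference of 0.28 (SE 0.0941, edgeR adjusted p = 0.0298). The call was lost when the first or second replicate of either group was left out, with adjusted p up to 0.153. Slc5a3, a transporter gene that overlaps Mrps6, had a log2 fold change of 0.36 (edgeR adjusted p = 0.0845). The genes whose names and places differ did not pass the test in tumour cells: Mrps30 had a log2 fold change of -0.15 (SE 0.0853), Mrps18a 0.12 (SE 0.0869) and Mrps36 0.08 (SE 0.131).

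The T cells were compared between cultures with Fto-depleted and control tumour cells. Beside shFto-1, 51 of the 77 genes were higher and 0 lower than beside shNC, where 15.4% of all 12824 genes tested were higher and 6.84% lower. Beside shFto-2, 53 were higher and 0 lower, against 20.4% and 13.3% of all genes. Scaling by library totals gave 32 and 34 higher. At an unadjusted p under 0.05, 0 were lower beside either line, and DESeq2 also called 0 lower. The lowest log2 fold changes were -0.14 and -0.29. Median log2 fold changes were 0.65 and 0.66, against 0.02 and -0.03 over all genes. These 2 comparisons share the shNC libraries. They had 46 of the higher genes in common, 90.2% of the first list and 86.8% of the second, and 19 genes passed beside neither line. In bulk samples such as these, fewer cells of a type and less RNA per cell cannot be told apart.

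Rises were found in both subunits. Beside shFto-1, 34 of 48 large subunit genes (70.8%) and 17 of 29 small subunit genes (58.6%) rose, with median log2 fold changes of 0.65 and 0.63. Beside shFto-2 the counts were 33 (68.8%) and 20 (69%), with medians of 0.60 and 0.70. The difference between the subunits was not tested.

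**Figure D1:**
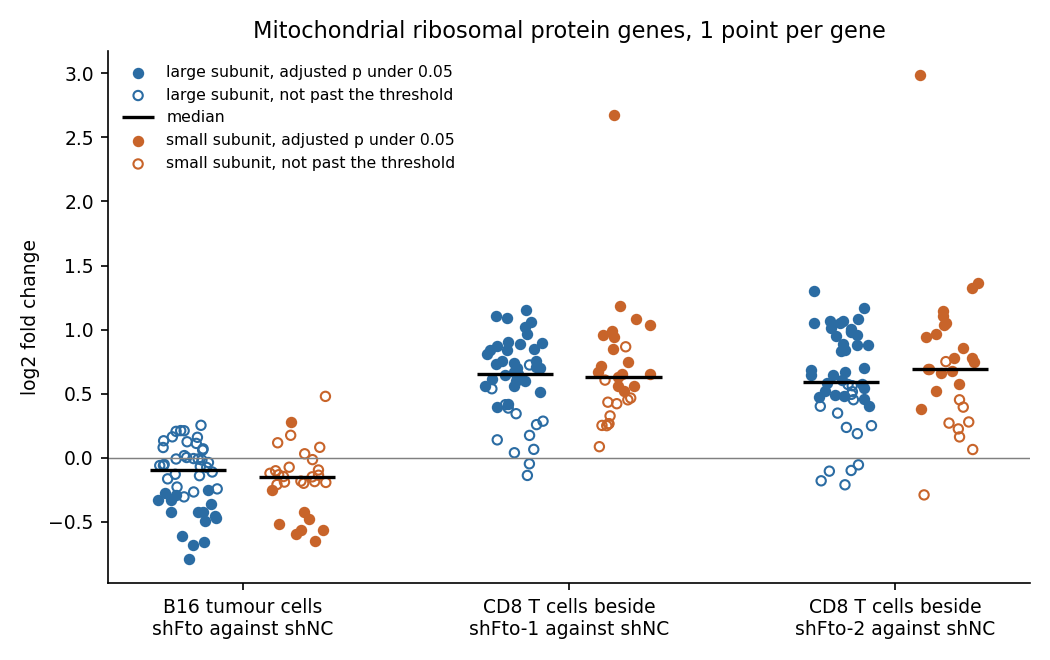
Log2 fold change of each of the 77 genes (vertical axis) in 3 comparisons, with large subunit genes in blue and small subunit genes in orange; filled points had an adjusted p under 0.05 and black bars are medians. Filled points lie below 0 in tumour cells, with 1 exception, and above 0 in both T cell comparisons.

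Mrps25 rose furthest in T cells. Its protein belongs to the small subunit. The gene was at 16.4 and 5.87 CPM beside shNC (46 and 42 counts), at 59.5 and 61.8 CPM beside shFto-1, and at 70.6 and 79.9 CPM beside shFto-2. The log2 fold changes were 2.68 (SE 0.311, edgeR adjusted p = 0.000529) and 2.99 (SE 0.308, edgeR adjusted p = 7.63e-05). On a scaling common to both tables, its level beside shNC was 13.9% and 5.1% of that in control tumour cells, within the range of the melanocyte markers in the shNC libraries (1.69% to 21.8%). Beside shFto-1 it was 57.3% and 58.0% of the level in shFto tumour cells and beside shFto-2 70.0% and 75.5%, above the highest marker in any of those libraries, 18.3%. Mrps25 overlaps Nr2c2, a nuclear receptor gene, which moved the other way, with log2 fold changes of -0.47 and -0.66 (edgeR adjusted p = 0.03 and 0.00345).

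Mrps6 was at 30.7 and 30.6 CPM beside shNC, at 74.0 and 64.8 CPM beside shFto-1 and at 74.1 and 79.7 CPM beside shFto-2. The replicates of each group lay close together and the log2 fold changes were 1.18 (SE 0.133) and 1.32 (SE 0.133). The overlapping Slc5a3 also rose, by 0.71 and 0.96. Mrpl36, the gene of a small large-subunit protein, was at 9.29 and 12.4 CPM beside shNC and at 24.4 to 29.8 CPM in the 4 other libraries, with log2 fold changes of 1.15 and 1.3. Mrpl15, another large subunit gene, stood at 81.8 and 98.6 CPM beside shNC, at 210 and 182 CPM beside shFto-1 and at 203 and 164 CPM beside shFto-2. In these genes every library beside an shFto line lay above both shNC libraries.

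Mrps18b, a small subunit gene, rose by 1.08 and 1.37 on the log2 scale. Mrpl52 had a log2 fold change of 1.09 beside shFto-1 (SE 0.198), and Mrpl19 and Mrps27 had log2 fold changes of 1.17 (SE 0.241) and 1.15 (SE 0.175) beside shFto-2. Mrpl12, the gene with the largest fall in tumour cells, was at 116 and 111 CPM beside shNC, at 246 and 197 CPM beside shFto-1 and at 237 and 239 CPM beside shFto-2, with log2 fold changes of 0.97 (SE 0.121) and 1.07 (SE 0.121). Mrps30 rose by 0.75 and 0.86 on the log2 scale and Mrps18a by 0.67 and 0.70, although the Mrps18a calls were lost in 3 and 2 alternatives: with library totals (shFto-1) or without the second shNC replicate or 1 shFto replicate, with edgeR adjusted p up to 0.235 and 0.118. Mrps36 had log2 fold changes of 0.47 (SE 0.196, edgeR adjusted p = 0.128) and 0.66 (SE 0.195, edgeR adjusted p = 0.0252), and the second call was lost in 3 alternatives, with library totals or without the second shNC or the second shFto-2 replicate (adjusted p up to 0.253).

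The 19 genes that passed beside neither line included Mrpl24, at 78.6 and 60.1 CPM beside shNC and 52.8 to 70.7 CPM beside the shFto lines, where the groups overlapped. Mrpl48 was also among them. It had 0 counts in the first shNC replicate, which allows up to 1.14 CPM at that depth, and 13.3 CPM in the second. Without the first shFto-1 replicate, the deepest T cell library, the number of genes that rose beside shFto-1 was 23, and no other left-out library took the count below 34.

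**Figure D2:**
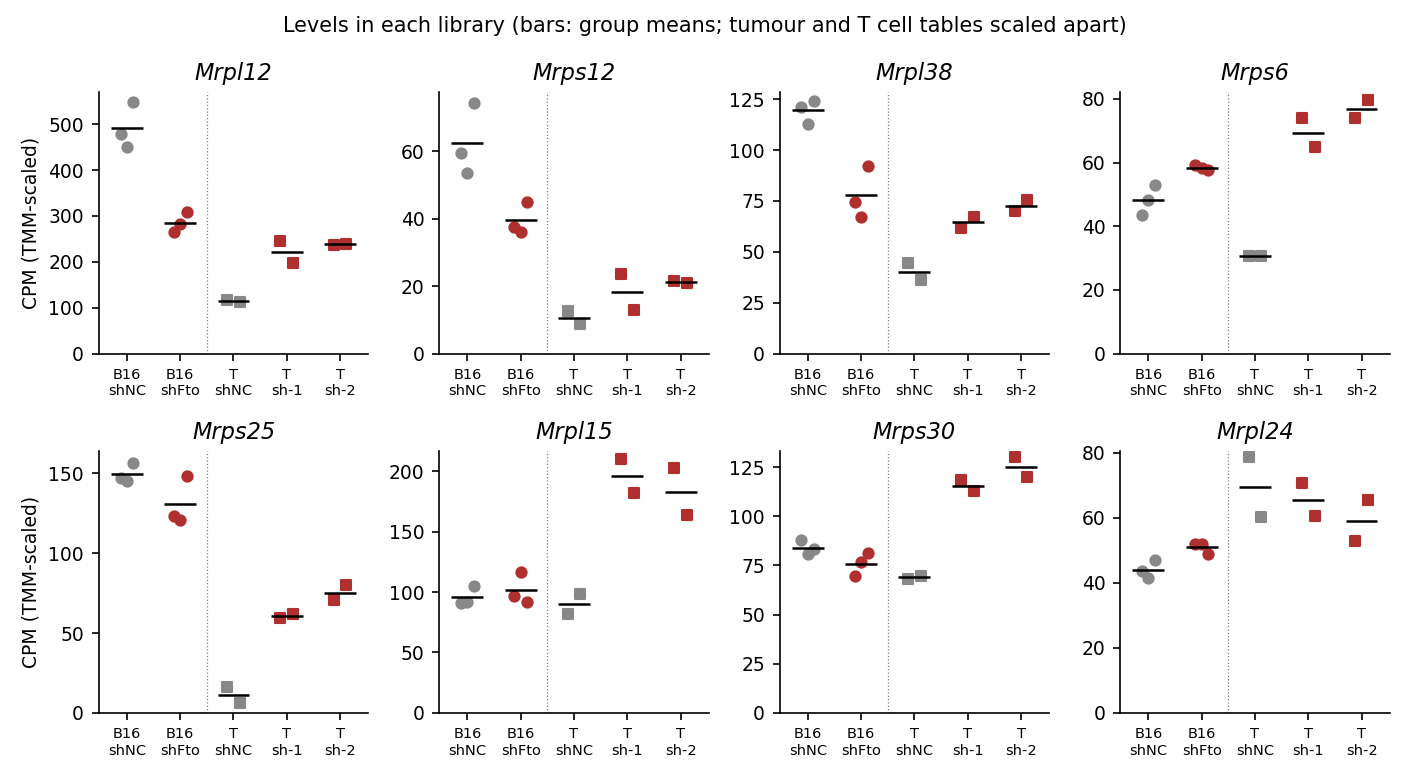
Level in CPM (vertical axes, from 0) of 8 genes in each tumour library (circles) and T cell library (squares), with group means as bars; shFto is red and shNC grey, and the tables were scaled apart. Mrpl12 and Mrpl38 were lower with shFto in tumour cells and higher beside both shFto lines in T cells, Mrps12 passed the test in T cells beside shFto-2 alone of the 2 lines, and the Mrpl24 groups overlapped in T cells.

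The shFto-1 and shFto-2 cultures were then compared with each other. Of the 77 genes, 0 were higher and 0 lower beside shFto-2 by edgeR, where 0.491% of all genes were higher and 1.42% lower. At an unadjusted p under 0.05 there were 3 genes (against 16.3% of all genes), and DESeq2 called 2 higher. Log2 differences ran from -0.82 to 0.41 with a median of 0.03. Mrps22, a small subunit gene, had the smallest adjusted p (edgeR, 0.153). With 2 libraries a side, a missed threshold does not show that the levels were alike.

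As a whole family, the 77 genes took 0.477% to 0.492% of all counts in shFto tumour libraries and 0.515% to 0.593% in shNC tumour libraries. In T cells the share was 0.239% and 0.244% beside shNC and 0.333% to 0.363% beside the shFto lines. The ranges did not overlap in either cell type, and they moved in opposite directions. The summed large subunit level over the summed small subunit level ranged from 1.75 to 1.88 over the tumour libraries and from 1.65 to 1.84 over those of the T cells, with overlap between all groups of a cell type except that both shFto-2 libraries (1.67 and 1.65) lay below both shFto-1 libraries (1.79 and 1.71). No gene lengths were used here, so levels are compared between libraries and not between genes.

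**Figure D3:**
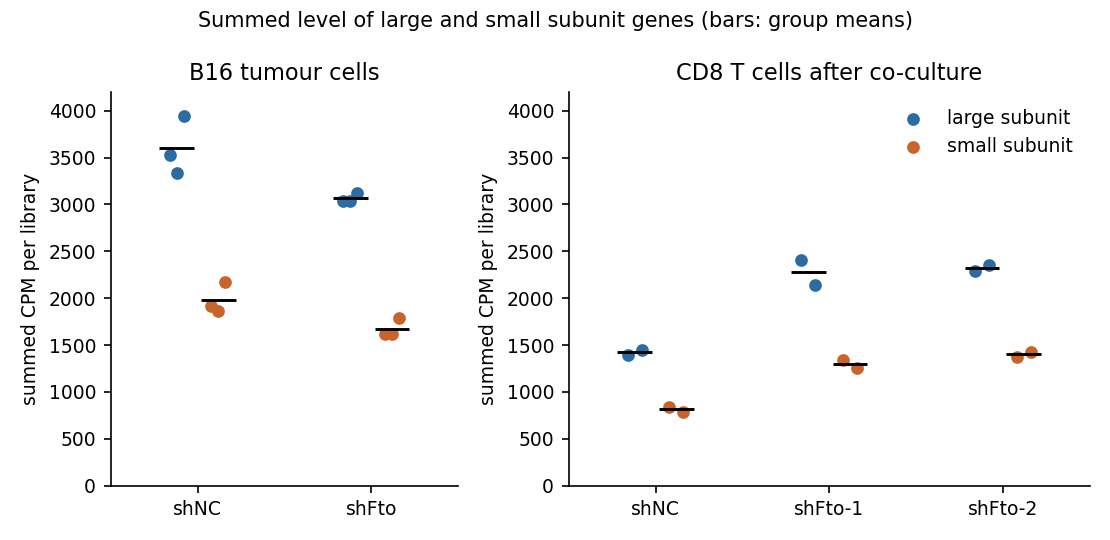
Summed CPM of the large subunit genes (blue) and small subunit genes (orange) in each library (vertical axis, from 0), with group means as bars; the 2 tables were scaled apart. In tumour cells shFto libraries lie below shNC libraries, and in T cells the shNC libraries lie lowest, in both subunits.

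The difference between the shFto effects in the 2 cell types was tested in 1 model over all 12 libraries, as the mean effect of both shFto lines on T cells less the effect in tumour cells. At an adjusted p under 0.05 (edgeR) it was positive for 51 of the 77 genes and negative for 0, against 15.8% and 11.7% of all 15049 genes tested. By sign alone it was positive for 74 and negative for 3. At an unadjusted p under 0.05 it was negative for 1 gene, and DESeq2 also called 1 negative. Seen gene by gene, 15 of the 77 genes, against 4.15% of the 10636 genes tested in both tables, fell in tumour cells and rose in T cells beside both lines: Mrpl12, Mrpl17, Mrpl18, Mrpl20, Mrpl37, Mrpl38, Mrpl46, Mrpl52, Mrpl54, Mrpl57, Mrps5, Mrps22, Mrps24, Mrps26 and Mrps28. Mrpl17, whose promoter is printed above, had log2 fold changes of -0.26 in tumour cells and 0.90 and 1.07 in T cells.

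Control tumour cells were compared with T cells kept beside control tumour cells. Of the 77 genes, 56 were higher in tumour cells and 3 lower, against 38.8% and 40.4% of all 13590 genes tested, with a median log2 difference of 0.93 against -0.0243 over all genes. Large subunit genes were higher in 38 of 48 cases (79.2%) and small subunit genes in 18 of 29 (62.1%). Cell type, culture and library preparation cannot be told apart in this comparison. Genes for cytosolic ribosomal proteins went the other way, with 8 higher and 49 lower of 78 tested (median -0.50), while genes of the respiratory chain and ATP synthase were higher in 62 and lower in 4 of 76 (median 0.98).

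Mrps25 again differed most. It was at 136, 134 and 144 CPM in tumour cells and at 19.0 and 7.18 CPM in T cells, a log2 difference of 3.63 (SE 0.242, edgeR adjusted p = 2.55e-08). Mrpl51, a large subunit gene, was at 126, 126 and 156 CPM in tumour cells and at 30.5 and 32.0 CPM in T cells, a log2 difference of 2.11 (SE 0.145). Mrpl12 was at 442, 414 and 505 CPM against 134 and 136 CPM, a log2 difference of 1.75 (SE 0.116). Mrpl49, Mrps12 and Mrpl53 had log2 differences of 2.31, 2.26 and 2.16, and all tumour libraries lay above both T cell libraries in these genes. Mrpl48 had 38.4 to 49.9 CPM in tumour cells against 0 and 16.2 CPM in T cells, and its call was lost with DESeq2 (adjusted p = 0.239). In addition to Mrps25, Mrpl49 lay below the highest melanocyte marker share, 21.8% of the tumour level, in both shNC T cell libraries.

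Mrpl24, the gene of a large subunit protein, was the clearest exception, at 40.1, 38.0 and 43.2 CPM in tumour cells and 90.6 and 73.5 CPM in T cells, a log2 difference of -1.0 (SE 0.129, edgeR adjusted p = 1.35e-05). Rrnad1, which overlaps Mrpl24, was higher in tumour cells, with a log2 difference of 10.3 (SE 0.937, edgeR adjusted p = 1.05e-06). Mrpl1 and Mrpl15 had log2 differences of -0.49 and -0.31 (edgeR adjusted p = 0.0422 and 0.0378), and the calls were lost in 6 and 4 alternatives, with adjusted p up to 0.783 and 0.562. Library totals, no filter, and leaving out the first tumour or the second T cell shNC replicate each ended both calls. Mrps30 and Mrps36 did not pass the test, with log2 differences of -0.0885 (SE 0.109) and -0.16 (SE 0.19), and Mrps18a was 0.63 higher on the log2 scale in tumour cells.

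**Figure D4:**
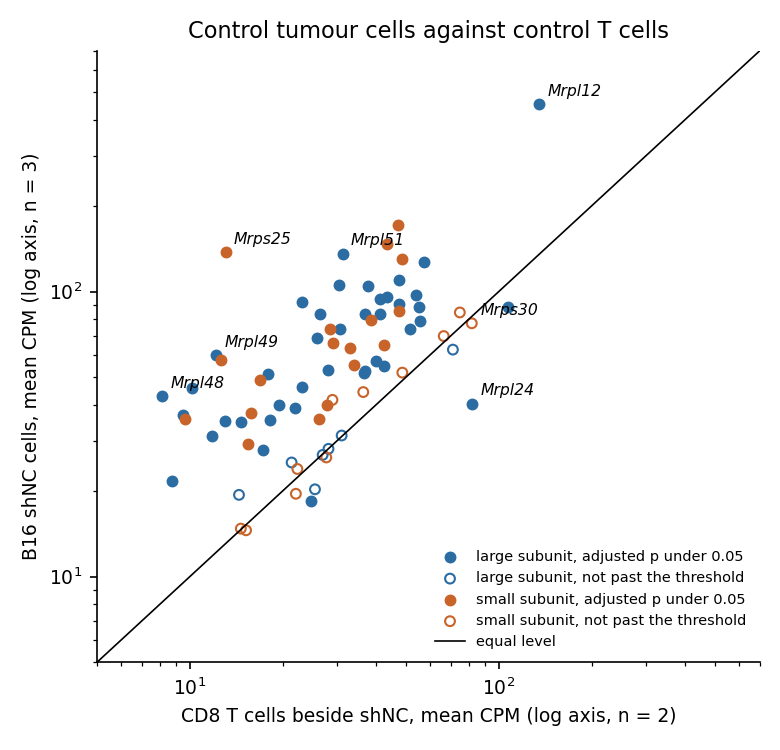
Mean CPM of each of the 77 genes in shNC T cell cultures (horizontal log axis, 2 libraries) and in shNC tumour cells (vertical log axis, 3 libraries), scaled together; filled points had an adjusted p under 0.05 and the line marks equal levels. Most points lie above the line, Mrps25 farthest, and Mrpl24 lies below it.

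On the scaling common to both tables, T cell levels of some genes lay above the matched tumour levels, and more genes did so beside the shFto lines. The tumour reference changed as well: shNC cultures were set against shNC tumour cells, and shFto cultures against shFto tumour cells, where 24 of the genes had fallen. The parts of the 2 changes in these counts were not tested. In shNC cultures, 3 of the 77 genes had both T cell libraries above all matched tumour libraries and 60 had both below, against 43.2% and 39.3% of all 15049 genes. Beside shFto-1, 23 lay above and 34 below (41.2% and 36.9% of all genes), and 19 of the 23 were among the 51 that rose. Beside shFto-2, 26 lay above and 30 below (44.4% and 37.3% of all genes), and 23 of the 26 were among the 53 that rose. The overlaps with the genes that rose use the same T cell libraries as those calls, so they are not separate evidence. For Mrpl15 the T cell level was 108% and 134% of the matched tumour level beside shNC, 261% and 221% beside shFto-1 and 259% and 200% beside shFto-2. For Mrps30 the values were 103% and 107%, 197% and 183%, and 222% and 196%. The median melanocyte marker in the same libraries stood at 9.17% to 11.1% of the tumour level.

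Other genes of mitochondrial translation were taken from lists by function, and they are given as counts. The shares of all genes that rose and fell, to be read beside them, were 15.9% and 16.9% in tumour cells, 15.4% and 6.84% beside shFto-1, and 20.4% and 13.3% beside shFto-2. Of 6 mitochondrial ribosomal proteins with other symbols, 3 fell and 0 rose in tumour cells, and 4 rose and 0 fell in T cells beside each line. Gadd45gip1, a large subunit protein, had log2 fold changes of -0.51 in tumour cells and 0.97 and 1.32 in T cells, and Aurkaip1, a small subunit protein, -0.49, 0.73 and 0.55. Of 12 translation factors, 1 fell in tumour cells and 3 rose beside each line. Tufm, the elongation factor that brings transfer RNAs to the ribosome, had log2 fold changes of -0.61 in tumour cells and 0.50 and 0.88 in T cells, and Gfm1, which moves the ribosome along the messenger, had 0.54 and 0.97 in T cells and -0.15 (edgeR adjusted p = 0.156) in tumour cells.

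Of 25 assembly factors tested in tumour cells, 2 rose and 3 fell. Of 24 tested in T cells, 6 rose beside shFto-1 and 9 beside shFto-2, with 0 lower beside either. Noa1, a GTPase of ribosome assembly, fell by 0.41 in tumour cells and rose by 0.88 and 1.13 in T cells. Of 20 mitochondrial tRNA synthetases and related subunits, 5 fell and 0 rose in tumour cells, and 3 and 6 rose in T cells. Mars2, the methionyl-tRNA synthetase, rose by 1.74 and 1.79 in T cells. Of 23 genes for expression and upkeep of mitochondrial DNA, 3 rose and 2 fell in tumour cells, whereas 9 and 12 rose and 1 fell in T cells. Elac2, which trims mitochondrial transfer RNAs, rose by 1.06 and 1.56.

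Of 11 regulators of mitochondrial genes, 1 rose and 4 fell in tumour cells and 3 rose beside each line in T cells. Esrra, a nuclear receptor, fell by 0.85 in tumour cells. Pprc1, a coactivator, rose by 0.87 and 1.12 in T cells, and Myc rose by 0.57 and 0.64. Gabpa, which encodes a subunit of GABP, was the 1 that rose in tumour cells, by 0.281 (edgeR adjusted p = 0.0141). In T cells it changed by 0.325 and 0.526 (edgeR adjusted p = 0.0878 and 0.00721). Nrf1 did not pass, at -0.122 in tumour cells and 0.323 and 0.165 in T cells (edgeR adjusted p = 0.245, 0.0849 and 0.349). Of 11 genes for insertion and quality control of newly made mitochondrial proteins, 1 rose and 5 fell in tumour cells, and 5 rose beside each line. Phb, which encodes prohibitin, fell by 0.54 in tumour cells and rose by 0.74 and 0.90 in T cells.

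Counts for the 2 families nearest in function are given beside those of the mitochondrial ribosomal genes. Of cytosolic ribosomal protein genes, 45 of 77 tested fell in tumour cells (58.4%). In T cells, 35 of 78 rose beside shFto-1 (44.9%) and 14 of 78 beside shFto-2 (17.9%). Of respiratory chain and ATP synthase genes, 23 of 75 (30.7%) fell and 3 (4%) rose in tumour cells. Beside shFto-1, 25 (33.3%) rose and 1 (1.33%) fell, and 21 (28%) rose and 3 (4%) fell beside shFto-2. Of all genes tested, 16.9% fell and 15.9% rose in tumour cells. The shares of all genes that rose and fell were 15.4% and 6.84% beside shFto-1 and 20.4% and 13.3% beside shFto-2. The cytosolic share that rose beside shFto-2 lay below that of all genes. The difference between families was not tested.

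The m6A peak lists, called by the authors from 1 antibody library and its input per condition, asked where the mark lay on these transcripts in tumour cells. A peak was listed on 21 of the 77 genes with shNC (27.3%), 30 with shFto (39%) and 33 with Dac51 (42.9%). The shares over all genes tested in tumour RNA were 44.2%, 53.6% and 49.9%, and over the tested genes within the range of the members' levels they were 48.8%, 59% and 56.2%. All 21 genes with a peak in shNC also had one in both other lists, 5 more genes were shared by shFto and Dac51, 4 were listed for shFto alone and 7 for Dac51 alone, and 40 genes had no peak. Without replicates there is no test, and both lists are set against the same shNC library.

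Among the 21 genes with a peak in every list, the authors' highest fold enrichment was above its shNC value in 19 with shFto and in 19 with Dac51, against 81.8% and 79.4% of the 4730 genes with a peak in every list. Medians were 3.92 with shNC, 6.27 with shFto and 6.35 with Dac51, whereas over all such genes they were 7.05, 11.6 and 10.7. On Mrpl12 the peak at chr11:120488227-120488754 (mm10), at the 3′ end of the gene, had a fold of 4.32 with shNC and 9.64 with shFto, and with Dac51 the peak there had 9.66. On Mrpl45, a large subunit gene, the highest fold was 3.92 with shNC, 24.4 with shFto and 25.3 with Dac51, and the highest peak lay at another position in the latter lists. Over the position of the shNC peak, the Mrpl45 folds were 5.86 with shFto and 4.28 with Dac51. Mrpl46 had the highest shNC value, 14.8, with 18.6 and 16.5 in the others. Mrpl41 was lower in both, at 9.05, 7.78 and 6.35.

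**Figure D5:**
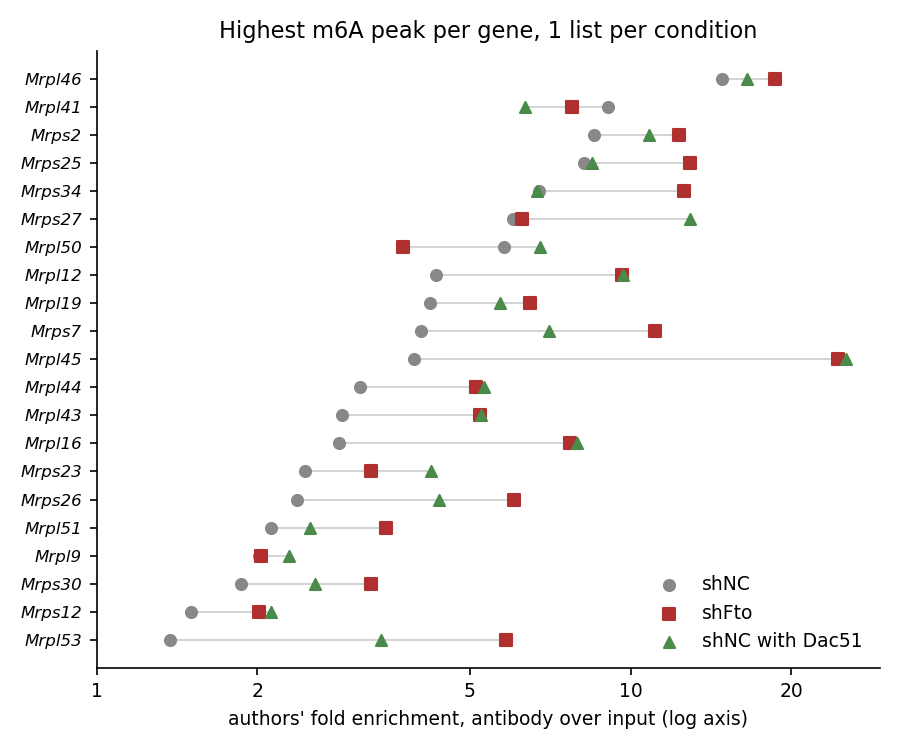
The authors' highest m6A fold enrichment (horizontal log axis) for each of the 21 genes with a peak in all 3 lists, with shNC as circles, shFto as squares and shNC with Dac51 as triangles, 1 library pair each. Mrpl45 moves furthest, from 3.92 to 24.4 and 25.3, but its highest peak with shNC lies at another position than in the other lists. Mrpl41 has its highest value, 9.05, with shNC.

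Set beside the RNA, 17 of the 37 genes with a peak in any list fell in tumour cells (45.9%) and 7 of the 40 without one (17.5%), with median log2 fold changes of -0.19 and -0.13. Over all genes tested the shares were 15.8% of 6906 and 18.5% of 4812. The 37 genes had the higher median level, 68.3 CPM against 44.7 CPM. The difference between the 2 sets, and the part of the level in it, was not tested.

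Open chromatin at the promoters was present in nearly every tumour library. Of the 68 genes with a start in the promoter table, 67 or 68 had an ATAC peak within 500 bp in each of the 6 libraries, against 93.5% to 94.1% of the 8683 protein-coding genes tested. The authors' peak fold enrichment was lower in all 3 shFto libraries than in all 3 shNC libraries for 11 of the 68 genes, against 15.2% of the 8683 genes, and higher for 1, against 3.17%. Mrpl46 and Mrps11 are both among the 11 and have the same folds in every library. The members' share is near that of all genes, so it is not a result about them. At Mrpl12 the folds were 18.79, 19.88 and 21.64 with shFto and 19.98, 21.61 and 20.81 with shNC, so that the groups overlapped where the RNA fell. At Mrpl17 they were 22.01, 24.09 and 24.04 with shFto and 22.74, 21.54 and 23.68 with shNC, again with overlap. These folds depend on peak calling in each library and were not tested.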

How the data were processed

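RNA-seq gene counts were deposited by the authors as 2 tables, for 6 tumour and 6 T cell libraries. Per the submitters' processing notes, mm10 and the tools Trim Galore 0.6.0, STAR 2.7.0f, Bowtie2 2.3.5, Picard, deepTools and MACS2 2.1.3 were used; the counting program and its use of strand are not given in the sources used here. The m6A and ATAC peak lists were deposited by the authors, per library, with a fold enrichment (ratio) for each peak; the ATAC lists also hold −log10 q-values, per the file headers.

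Counts were tested with edgeR 4.0.16 (TMM scaling, filterByExpr, quasi-likelihood, R 4.3.3), adjusting p over all genes tested, with a threshold of 0.05. The tumour libraries, the T cell libraries, the 5 control libraries and all 12 libraries were fitted separately, and CPM come from the fit of the comparison. DESeq2 1.42.0, scaling by library totals, no filter, a replicate block and left-out replicates were alternatives. The scripts were tested on simulated data. Named were up to 6 rises and 6 falls per comparison with a mean of at least 10 CPM, 4 genes chosen by role (Mrpl12, Mrps30, Mrps18a, Mrps36), and up to 3 genes per functional list; other genes were chosen after their values were seen. The members and lists were chosen with earlier results of these data known. A motif or peak at a start used RefSeq GRCm38.p6, the build of the files.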

Additional observations from a re-analysis of the deposited data

Results flagged for a closer look

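The effect of shFto differed between T cells and tumour cells, by the edgeR test of the difference itself over all 12 libraries, for 51 of the 77 genes, all with the higher value in T cells. Among the named genes the difference, T cells less tumour cells on the log2 scale, was 3.01 for Mrps25, 1.78 for Mrpl12, 1.62 for Mrps12, 1.45 for Mrps28, 1.44 for Mrpl36, 1.42 for Mrps24, 0.92 for Mrps30 and 0.54 for Mrps18a. The Mrps18a difference (edgeR adjusted p = 0.0436) lost its call in 12 of the alternatives, with adjusted p up to 0.331. The median melanocyte marker stood at 9.17% to 11.1% of the matched tumour level in the 6 T cell libraries, and its part in the differences was not tested. Groups of 2 or 3 libraries are too small to look for single outlying libraries.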

How the results depend on the processing

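Scaling by library totals gave 3 genes higher and 21 lower in tumour cells (1 and 24 with TMM). In T cells it gave 32 higher beside shFto-1 and 34 beside shFto-2 (51 and 53). Between control cells 62 were higher and 1 lower (56 and 3). This scaling gave 40 positive differences of effects and 1 negative (51 and 0). It moved the median of all genes from 0.0209 to -0.147, from -0.026 to -0.201, from -0.0243 to 0.206 and from -0.0724 to -0.257 in the last 4 comparisons; relative to it the members' median was 0.63 and 0.625, 0.687 and 0.687, 0.957 and 0.959, and 0.842 and 0.833. Of all genes called, the share higher went from 69.3% to 45.7% beside shFto-1, from 60.5% to 44.8% beside shFto-2 and from 48.5% to 60% in tumour cells. Without a filter, 2 genes were higher in tumour cells, 1 beside shFto-2 against shFto-1, and 1 lower between control cells. DESeq2 gave 43 higher beside shFto-1 and 49 beside shFto-2, and 2 higher beside shFto-2 against shFto-1. It gave 48 positive differences of effects and 1 negative. The causes were not tested. At a fold of at least 4, m6A peaks lay on 10 (13%), 17 (22.1%) and 17 (22.1%) genes with shNC, shFto and Dac51. The shares over all genes tested were 31%, 39.8% and 36.8%.

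Leaving out 1 replicate gave 0 to 2 higher and 18 to 27 lower genes in tumour cells, 23 to 44 higher beside shFto-1, 36 to 54 beside shFto-2, 53 to 56 higher and 1 to 5 lower between control cells (1 without the first tumour or the second T cell shNC replicate, 5 without the third tumour one), and 39 to 53 positive and 0 to 1 negative differences of effects. A lone remaining T cell library is assumed to vary like the other groups. Over all alternatives, the outcome for named genes stayed the same in 564 refits and a call was lost in 35. The 564 include refits of role genes that had no call to keep. No call reversed its direction. With the replicate block, tumour cells had 1 higher and 24 lower, and T cells 48, 53 and 0 higher; same-numbered replicates correlated at -0.017 to 0.0365 in tumour cells and, in T cells, at 0.368 between the shFto lines but at -0.324 and -0.206 between shNC and those lines, so the numbers were not taken to pair the samples. A block with the shNC numbers exchanged, added after seeing the data, gave 53 and 56. Levels per gene length were not run, since no exon lengths were used here.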
